A study of Mus musculus with 10 samples.

Results

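Surface proteins that mark blood stem and progenitor cells are represented here by 9 genes, Cd34, Thy1, Prom1, Ly6a, Cd48, Cd27, Cd93, Cd9 and Cd47, out of 19938 genes with a probe set of their own on the arrays. The members were named by symbol, and each was read from the brightest probe set annotated with that symbol alone. Such a probe set was found for 8 of the 9, and Ly6a (Sca-1) was not analysed here. RNA came from c-Kit-positive mouse acute myeloid leukaemia cells, in which the MLL-AF9 fusion is the driver. In all, 5 lines arose as separate primary leukaemias, and each held a Cre-ER transgene, whose Cre recombinase is activated by 4-hydroxytamoxifen (4-OHT). The fl 4-OHT arrays (n = 3) came from lines 10949, 10950 and 10986, with a floxed allele of the X-linked transcription factor gene Zfx (Zfx fl/y), treated with 10 nM 4-OHT, and the fl vehicle arrays (n = 3) from the same lines under ethanol; the labels call the 4-OHT cells of these lines cko. The wt 4-OHT and wt vehicle arrays (n = 2 each) came from lines 10977 and 10980, with the wild-type allele (wt/y), treated in the same ways. Every culture was kept for 72 h, with IL-3, IL-6 and SCF, and sorted for c-Kit afterwards. Cells of each line were taken from moribund mice, and no source used here gives the age of the mice or the promoter of the transgene.

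In normal mouse marrow these proteins order the early steps of blood formation. The most primitive stem cells carry Sca-1 and low Thy1, have little CD34 and no CD48, and gain CD34 and CD48 as they become progenitors. CD93 marks fetal and early progenitors, and CD27 is a receptor of early progenitors and lymphocytes. CD9 and CD47 are found on many blood cells, and CD47 restrains phagocytosis by binding SIRPα on macrophages.

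No member passed the test in any of the 5 comparisons, so the values below are described against their spread. With 4-OHT, Thy1 was higher in each of the 3 fl lines, with 1.86 times the vehicle level on average, and differed little in the wt lines. Cd34 was also higher in each fl line, most of all in line 10986, but changed with opposite signs in the wt lines. Prom1 was lower in the fl than in the wt lines under either treatment, at 0.302 times the wt level under 4-OHT and 0.333 times under vehicle.

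Levels are log2 values of the deposited signal, in which a difference of 1 is a doubling. Genes were tested with limma where their mean level reached 6.23, the 25th percentile of all probe sets (15662 genes), and passed at a Benjamini-Hochberg adjusted p under 0.05 over all of them. Of the 8 measured members, 7 reached that level and Cd27 did not. Line 10986 under vehicle gave an array unlike the other 9, at 49.4 on the leading principal component against -20.4 to 23.0. The fl changes of Thy1, Cd34, Cd48 and Cd9 are therefore also given without line 10986, which was not done for every other gene. Zfx itself was at 10.07, 9.98 and 10.02 with 4-OHT in lines 10949, 10950 and 10986, against 10.09, 9.63 and 9.24 with vehicle, and at 9.90 and 10.04 with 4-OHT in lines 10977 and 10980, against 10.12 and 10.07 with vehicle. It did not fall in the fl lines (log2 change 0.37, SE 0.16, adjusted p = 0.407), which goes against the label cko as far as this probe set reads the deleted part. The position of its probes was not used here, so these levels do not settle whether the allele was deleted, and the groups are named by line and treatment. Kit, the gene of the sorted receptor, lay between 8.72 and 9.20 on fl 4-OHT arrays, 8.35 and 8.90 on fl vehicle arrays, 8.64 and 9.94 on wt 4-OHT arrays and 8.48 and 9.79 on wt vehicle arrays. Of 11 lymphoid markers 7 were below the level filter, among them Cd3g and Cd79a, while Cd79b averaged 10.17, Cd3e 7.03, Cd8a 6.73 and Pax5 6.41. Of 11 endothelial and stromal markers 5 were below it, among them Kdr, Tek and Emcn, while Pecam1 averaged 10.07 and Cdh5 6.26. In bulk RNA, fewer cells of a type and less RNA per cell cannot be told apart.

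**Figure D1:**
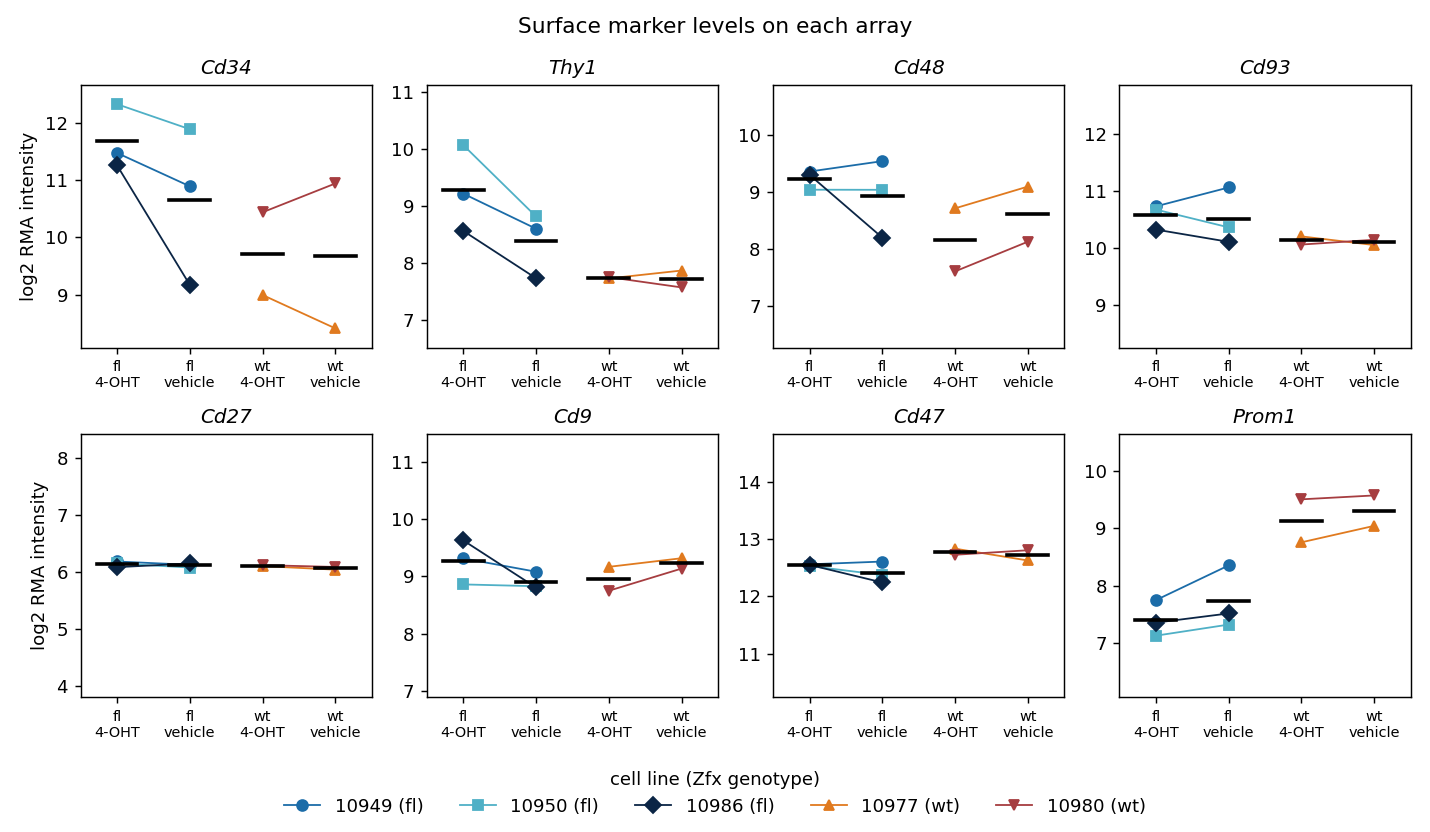
Log2 level of each of the 8 measured members on the 10 arrays (vertical axis, log2 RMA intensity, not starting at 0, with the same span in every panel) in the fl 4-OHT, fl vehicle, wt 4-OHT and wt vehicle groups. Points are arrays, lines join the arrays of 1 cell line and black bars are group means; the 6 fl arrays of Prom1 lie between 7.12 and 8.35, below its 4 wt arrays, and Cd27 stays between 6.04 and 6.19.

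Thy1 encodes a small glycoprotein held in the membrane by a lipid anchor, present at low density on mouse stem cells and at high density on T cells. Its levels in lines 10949, 10950 and 10986 were 9.21, 10.06 and 8.56 with 4-OHT, against 8.60, 8.81 and 7.73 with vehicle. In lines 10977 and 10980 they were 7.73 and 7.75 with 4-OHT, against 7.87 and 7.57 with vehicle. The fl 4-OHT and fl vehicle ranges overlapped because line 10986 was low throughout, but each line was higher with 4-OHT than with vehicle. The changes were 0.61, 1.25 and 0.83 in the fl lines and -0.14 and 0.18 in the wt lines. The fitted change in the fl lines was 0.90 (SE 0.14, 95% interval 0.55 to 1.24, n = 3 line pairs, adjusted p = 0.0856), and that in the wt lines 0.02 (SE 0.18, n = 2 line pairs, adjusted p = 1). The difference between the genotypes was 0.88 (SE 0.23, 95% interval 0.33 to 1.42, adjusted p = 0.677). Every fl change of Thy1 was positive and lay above both wt changes. Cd9 was the only other member with that pattern, against 9.32% of the genes tested.

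Without line 10986, the Thy1 change was 0.93 in the other fl lines and passed (adjusted p = 0.0254), while over all alternatives its adjusted p ranged from 0.0254 to 0.738. Without that line 440 of all genes passed in the fl lines, against 24 with it, and the Thy1 change was near the 0.90 of all 3 lines. With that line's vehicle array dropped and no block for the line, the Thy1 change was 0.57, the lowest of the alternatives. The difference between the genotypes was 0.91 without that line and did not pass (adjusted p = 0.209). Under 4-OHT the 3 fl arrays lay above both wt arrays, by 1.54 on average (SE 0.40, adjusted p = 0.148), and 12.6% of the genes tested were likewise separate. Under vehicle the fl arrays averaged 8.38 ± 0.57 (SD, n = 3) and the wt arrays 7.72 ± 0.21 (SD, n = 2), a difference of 0.66 (SE 0.40, adjusted p = 0.526) with overlapping ranges. The T cell gene Cd3e lay between 6.98 and 7.19 on fl 4-OHT arrays, against 6.94 to 7.33 on fl vehicle arrays.

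Cd34, a sialomucin of early progenitors and of endothelium, varied most over the 10 arrays of the 7 tested members (SD 1.32, range 3.93). Its levels in lines 10949, 10950 and 10986 were 11.48, 12.33 and 11.26 with 4-OHT, against 10.90, 11.90 and 9.17 with vehicle. Lines 10977 and 10980 had 8.99 and 10.44 with 4-OHT, against 8.41 and 10.95 with vehicle. The lowest fl level was on the vehicle array of line 10986, and that line had by far the widest change of the fl lines (2.09, against 0.58 and 0.44). The fitted fl change was 1.04 (SE 0.35, 95% interval 0.21 to 1.87, adjusted p = 0.292), and without line 10986 it was 0.51 (adjusted p = 0.265). The wt lines moved in opposite directions, by 0.58 in line 10977 and -0.50 in line 10980, so the fl changes of lines 10949 and 10950 lay no higher than that of wt line 10977. The difference between the genotypes was 0.998 (SE 0.55, adjusted p = 0.902). On 4-OHT arrays the fl lines all lay above the wt lines, as for 12.6% of the genes tested, by 1.98 on average (SE 0.87, adjusted p = 0.459). On vehicle arrays the ranges overlapped, at 10.65 ± 1.38 (SD, n = 3) in fl lines and 9.68 ± 1.79 (SD, n = 2) in wt lines. The endothelial gene Cdh5 and Pecam1, an adhesion gene also active in blood cells, changed by -0.04 (SE 0.10) and 0.80 (SE 0.21, adjusted p = 0.183) in the fl lines. Pecam1 changed by 1.45 in line 10986, against 0.58 and 0.38 in lines 10949 and 10950.

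Prom1, also called CD133, encodes a membrane protein of cell protrusions that marks stem cells of several tissues. Its levels in lines 10949, 10950 and 10986 were 7.74, 7.12 and 7.35 with 4-OHT and 8.35, 7.32 and 7.51 with vehicle. The wt lines 10977 and 10980 had 8.76 and 9.51 with 4-OHT and 9.04 and 9.58 with vehicle. All 6 fl arrays thus lay below all 4 wt arrays, as did 3.58% of the genes tested, and Cd47 was the only other member to do so, while no member had its fl arrays above all wt arrays (2.75% of genes). The fl lines were lower than the wt lines by 1.73 under 4-OHT (log2 difference -1.73, SE 0.33, 95% interval -2.48 to -0.98, adjusted p = 0.0639) and by 1.58 under vehicle (log2 difference -1.58, SE 0.33, 95% interval -2.33 to -0.84, adjusted p = 0.247). Among the genes tested, Prom1 ranked 140 by p under 4-OHT and 63 under vehicle, and the ranges were separate without 4-OHT as well. With the level filter at the 50th percentile the 4-OHT difference passed (adjusted p = 0.0487), as it did without the vehicle array of line 10986 (adjusted p = 0.0401), and its adjusted p ranged from 0.0401 to 0.772 over all alternatives. That vehicle array is in neither group of the 4-OHT comparison, and without it 167 of all genes passed there, against 101 with it. Each genotype is a set of separate leukaemias, so the allele and other differences between lines cannot be told apart.

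With 4-OHT, Prom1 was lower in each of the 5 lines, a pattern shared by 2.36% of the genes tested, and no member was higher in all 5 (2.13% of genes). The changes were -0.61, -0.19 and -0.16 in the fl lines, with a fitted change of -0.32 (SE 0.12, adjusted p = 0.355), and -0.29 and -0.07 in the wt lines, with a fitted change of -0.18 (SE 0.15, adjusted p = 1). The difference between the genotypes was -0.14 (SE 0.19, 95% interval -0.61 to 0.32, adjusted p = 0.963).

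The promoter windows of Prom1 are shown because, of the 6 members with a window, it alone had a match to the core motif of ZFX, AGGCCT. That motif reads the same on both strands. Thy1, Cd93 and Ly6a had no window and were not searched. RefSeq windows (GRCm38.p6, 250 bases before to 50 after a start site) were found for 6 of the 9 members, 8 windows in all. The motif occurred in 1 of the 8, and in 10.3% of the 32851 windows of all genes. It lay 101 bases before the start site of a Prom1 window on the minus strand of chromosome 5, and not in the other Prom1 window or those of Cd34, Cd48, Cd27, Cd9 and Cd47. A match in these letters is a description of sequence and does not show binding. Capitals mark the motif.
Prom1, chr5:44094719-44095018, minus strand: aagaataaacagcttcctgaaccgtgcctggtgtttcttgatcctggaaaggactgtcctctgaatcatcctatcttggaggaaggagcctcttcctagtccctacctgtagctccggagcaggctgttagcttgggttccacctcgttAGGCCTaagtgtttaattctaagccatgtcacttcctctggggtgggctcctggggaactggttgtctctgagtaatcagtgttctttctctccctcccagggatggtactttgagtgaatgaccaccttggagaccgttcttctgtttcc
Prom1, chr5:44101687-44101986, minus strand, no match: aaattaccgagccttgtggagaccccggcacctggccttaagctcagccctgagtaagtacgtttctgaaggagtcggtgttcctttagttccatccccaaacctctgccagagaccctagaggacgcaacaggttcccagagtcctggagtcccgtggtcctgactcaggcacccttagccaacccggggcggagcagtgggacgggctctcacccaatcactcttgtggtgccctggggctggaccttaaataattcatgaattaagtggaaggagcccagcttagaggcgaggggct

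**Figure D2:**
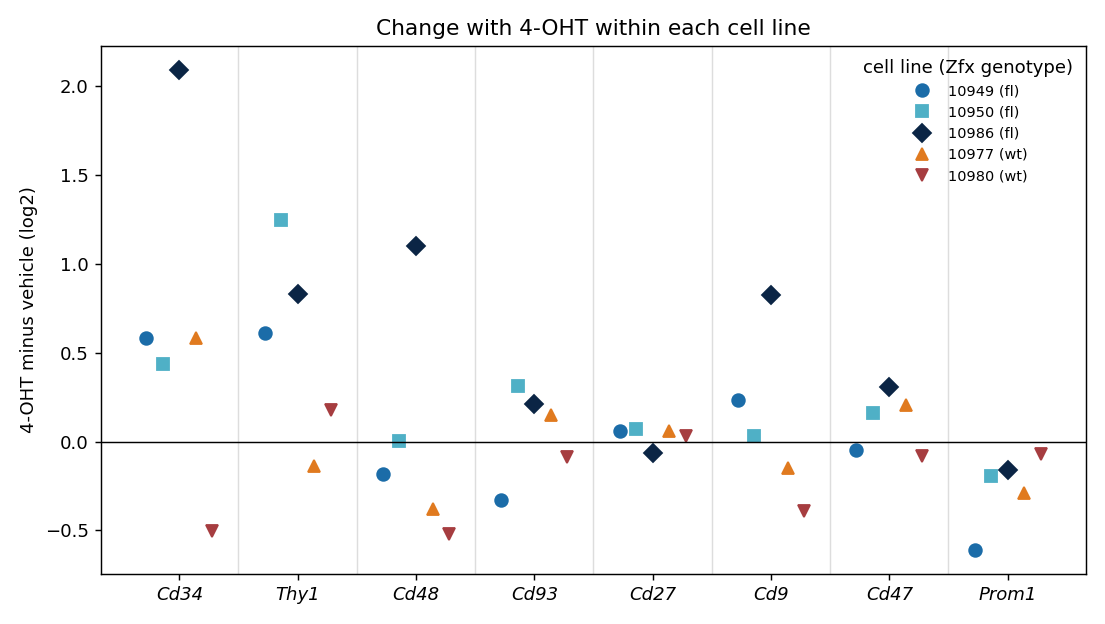
Log2 change with 4-OHT (4-OHT minus vehicle, vertical axis) of each measured member in each of the 5 cell lines, 1 point per line pair, with fl lines 10949, 10950 and 10986 to the left of wt lines 10977 and 10980. All 3 fl points of Thy1, at 0.61 to 1.25, lie above both of its wt points, and the highest Cd34, Cd48 and Cd9 points are those of line 10986. Thy1 and Cd9 were up in all 3 fl lines with every fl change above every wt change, as were 9.32% of the genes tested.

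Cd48 and Cd27 are immune receptors whose presence follows progenitor stage. CD48 belongs to the SLAM family, is absent from primitive mouse stem cells and binds CD244 and CD2. Its levels in lines 10949, 10950 and 10986 were 9.36, 9.04 and 9.30 with 4-OHT, against 9.54, 9.04 and 8.20 with vehicle. In lines 10977 and 10980 they were 8.72 and 7.61 with 4-OHT, against 9.10 and 8.13 with vehicle. Line 10986 alone had a large change among the fl lines (1.10, against -0.18 and 0.0020), so the fitted fl change of 0.31 (SE 0.24, adjusted p = 0.716) became -0.09 without that line (adjusted p = 0.692). Both wt lines had lower Cd48 with 4-OHT, by 0.38 and 0.52 (log2 changes -0.38 and -0.52), with a fitted change of -0.45 (SE 0.29, adjusted p = 1). The difference between the genotypes was 0.76 (SE 0.37, adjusted p = 0.875). Under 4-OHT the fl arrays all lay above the wt arrays, as for 12.6% of the genes tested, by 1.07 on average (SE 0.43, adjusted p = 0.399).

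Cd27, a receptor of the TNF receptor family for CD70, was at the floor of the array in all groups. It ran from 6.09 to 6.19 on fl 4-OHT arrays, 6.08 to 6.15 on fl vehicle arrays, 6.11 to 6.12 on wt 4-OHT arrays and 6.04 to 6.09 on wt vehicle arrays. All were below the level filter of 6.23, where a change could not be seen, and Cd27 was not tested. Its ligand gene Cd70 was also low, at 6.21 to 6.35 with 4-OHT, against 6.25 to 6.39 with vehicle in the fl lines.

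Cd93, the AA4.1 antigen, a lectin-like receptor, differed little between treatments. It ran from 10.33 to 10.73 on fl 4-OHT arrays, against 10.11 to 11.06 on fl vehicle arrays, and from 10.06 to 10.21 on wt 4-OHT arrays, against 10.06 to 10.15 on wt vehicle arrays. The fl changes had both signs (-0.33, 0.31 and 0.21), with a fitted change of 0.07 (SE 0.15, 95% interval -0.28 to 0.41, adjusted p = 0.969). That interval bounds a mean change of Cd93 in the fl lines at about 0.41 upward. Under 4-OHT the 3 fl arrays lay above both wt arrays, as for 12.6% of the genes tested. The difference was 0.44 under 4-OHT (SE 0.24, adjusted p = 0.647) and 0.41 under vehicle (SE 0.24, adjusted p = 0.526).

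Cd9 and Cd47 are made by many blood cells. Cd9 encodes a tetraspanin, a scaffold for other membrane proteins, and moved in opposite directions in the genotypes. Its levels in lines 10949, 10950 and 10986 were 9.32, 8.86 and 9.63 with 4-OHT, against 9.08, 8.83 and 8.81 with vehicle. In lines 10977 and 10980 they were 9.17 and 8.75 with 4-OHT, against 9.32 and 9.14 with vehicle. The changes were 0.23, 0.03 and 0.82 in the fl lines and -0.15 and -0.39 in the wt lines, a pattern of sign shared by 4.58% of the genes tested. The fitted change was 0.36 in the fl lines (SE 0.16, adjusted p = 0.44) and -0.27 in the wt lines (SE 0.20, adjusted p = 1), with a difference of 0.63 (SE 0.26, 95% interval 0.02 to 1.24, adjusted p = 0.836). Without line 10986 the fl change was 0.13 and the difference 0.40 (adjusted p = 0.432 for the difference).

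Cd47 had the smallest spread over the 10 arrays of the tested members (SD 0.18). Its levels were 12.56, 12.53 and 12.55 with 4-OHT in lines 10949, 10950 and 10986, against 12.61, 12.37 and 12.24 with vehicle, and 12.84 and 12.73 with 4-OHT in lines 10977 and 10980, against 12.63 and 12.81 with vehicle. The fl lines thus lay below the wt lines on every array. The fitted difference was -0.23 under 4-OHT (SE 0.12, adjusted p = 0.61) and -0.31 under vehicle (SE 0.12, adjusted p = 0.492). The other Cd47 probe set, left out of the test, also had all fl arrays (10.68 to 10.99 with 4-OHT, 10.19 to 11.07 with vehicle) below all wt arrays (11.22 to 11.25 with 4-OHT, 11.21 to 11.22 with vehicle). The change of Cd47 with 4-OHT was 0.14 in the fl lines (SE 0.11, 95% interval -0.13 to 0.41, adjusted p = 0.743) and 0.06 in the wt lines (SE 0.14, adjusted p = 1). At the other probe set the change was -0.08, 0.37 and 0.60 in lines 10949, 10950 and 10986. There it was 0.03 and 0.02 in lines 10977 and 10980.

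**Figure D3:**
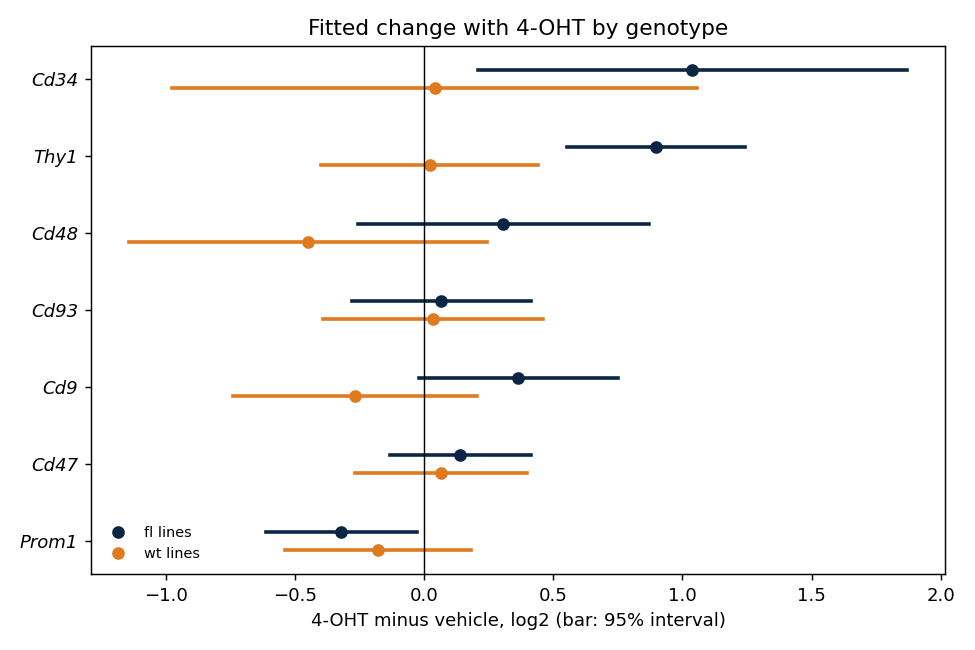
Fitted log2 change with 4-OHT (horizontal axis, 4-OHT minus vehicle) of the 7 tested members in the fl lines (dark, 3 line pairs) and wt lines (orange, 2 line pairs); dots are limma estimates and bars their 95% intervals. The interval of Thy1 in the fl lines, 0.55 to 1.24, lies above 0, as does that of Cd34. That of Prom1 in the fl lines lies below 0, while all 7 wt intervals include 0. The intervals are not adjusted for the number of genes, and no member passed.

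Counted over members, 6 of the 7 had a positive fitted change with 4-OHT in the fl lines, with a median of 0.31 against about 0 over all genes tested. None of the 7 passed in limma in either direction, where 0.0511% of all genes passed as higher and 0.102% as lower, and 3 (Cd34, Thy1 and Prom1) had an unadjusted p under 0.05, against 12.3% of all genes. The number of genes that passed, 24, was 440 without line 10986 and 0 without any other single line. Up in all 3 fl lines were 3 of the 7 members (Cd34, Thy1 and Cd9), against 14.6% of all genes, and down in all 3 was Prom1, against 14.5%. No member had all fl 4-OHT arrays above all fl vehicle arrays, against 4.55% of all genes, or all below, against 7.27%. In lines 10949, 10950 and 10986 the members had a median change of -0.049, 0.16 and 0.82, against -0.010, 0.040 and -0.042 for all genes. Up were 3, 6 and 6 of the 7 in these lines, against 47.4%, 57.5% and 45.5% of all genes. The change of all genes had an SD of 0.50 in line 10986, against 0.26 in each other fl line.

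In the wt lines 4 of the 7 members had a positive fitted change and the median was 0.02, against about 0 over all genes. By limma 0 of the 7 passed, as did 0% of all genes, and 0 had an unadjusted p under 0.05, against 0.147% of all genes. No member had both wt 4-OHT arrays above both wt vehicle arrays, against 14.3% of all genes, or both below, against 12.4%. Down in both lines were 3 members (Cd48, Cd9 and Prom1), against 24.5%, and up in both were 0, against 24.3%. Line by line, 3 of the 7 were up in line 10977 and 1 of the 7 in line 10980, against 50.8% and 49.1% of all genes, and 4 members (Cd34, Thy1, Cd93 and Cd47) moved in opposite directions in these lines, as did 51.2% of all genes. The genotype difference of the 4-OHT change had a median of 0.63 over the members, against -0.01 over all genes. By limma 0 of the 7 and 0% of all genes passed, and 2 (Thy1 and Cd9) had an unadjusted p under 0.05, against 5.82% of all genes. Both comparisons share the fl arrays or the wt arrays with those above.

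Between the genotypes under 4-OHT, 0 of the 7 members passed in limma, against 0.645% of all genes, and 4 (Cd34, Thy1, Cd48 and Prom1) had an unadjusted p under 0.05, against 10.8%. The fl 4-OHT arrays lay entirely above the wt 4-OHT arrays for 4 members (Cd34, Thy1, Cd48 and Cd93), against 12.6% of all genes, and entirely below for Cd47 and Prom1, against 14.2%. Under vehicle 0 of the 7 passed, against 0.0192% of all genes, and 2 (Cd47 and Prom1) had an unadjusted p under 0.05, against 9.83%. There the fl arrays lay entirely above the wt arrays for no member, against 18.6% of all genes, and entirely below for Cd9, Cd47 and Prom1, against 12.1%.

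**Figure D4:**
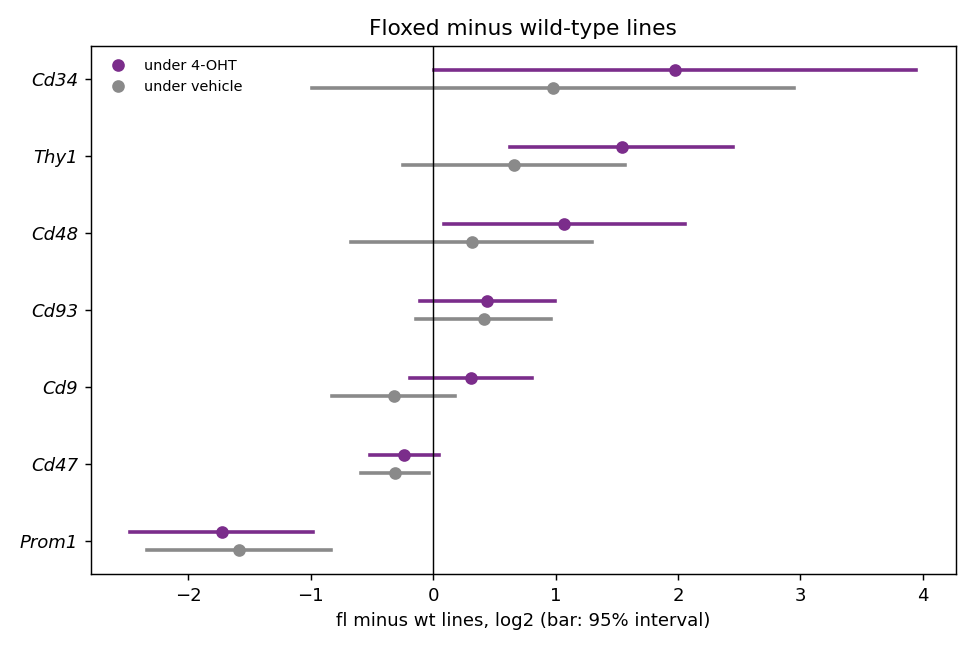
Fitted log2 difference between the fl and wt lines (horizontal axis, fl minus wt) of the 7 tested members under 4-OHT (purple) and under vehicle (grey); dots are limma estimates and bars their 95% intervals. Both intervals of Prom1 lie below 0, and those of Thy1, Cd34 and Cd48 lie above 0 under 4-OHT but not under vehicle. That of Cd47 lies below 0 under vehicle but not under 4-OHT. The intervals are not adjusted for the number of genes, and no member passed.

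Markers of other cell types were read beside these members, as the number that passed in the fl lines and as the summed linear signal of all measured genes of a list, those below the level filter included. Of 10 tested monocyte and macrophage genes, Irf8 and Ctss rose (0.93 and 1.40, SE 0.10 and 0.16) and 8 did not pass. The sum over 11 genes ran from 10551 to 15530 on fl 4-OHT arrays, against 7373 to 10796 on fl vehicle arrays, and from 8722 to 13353 on wt 4-OHT arrays, against 10646 to 11830 on wt vehicle arrays. Mmp8 rose (2.56, SE 0.19) and the other 7 of 8 tested late granulocyte genes did not pass. Their sum over 9 genes ran from 4412 to 7426 on fl 4-OHT arrays, against 2643 to 4879 on fl vehicle arrays, and from 3324 to 14379 on wt 4-OHT arrays, against 5345 to 12393 on wt vehicle arrays. No gene passed among 4 tested lymphoid genes, with Cd79b at 0.80 (SE 0.22, adjusted p = 0.201), and the sum over 11 genes ran from 2215 to 2815 on fl 4-OHT arrays, against 1539 to 2344 on fl vehicle arrays. The endothelial and stromal list had 0 of 6 passing and a median change of 0.01, and its sum over 11 genes ran from 2712 to 3024 on fl 4-OHT arrays, against 1989 to 2511 on fl vehicle arrays. Pecam1 was its brightest gene and the one with the largest change, whereas Cdh5, Col1a1, Col1a2 and Col3a1 changed by -0.04, 0.06, 0.04 and -0.11 in the fl lines. The mean log2 level of that list in lines 10949, 10950 and 10986 was 7.03, 7.21 and 6.99 with 4-OHT, against 6.93, 7.07 and 7.07 with vehicle. Also with 0 passing were 6 tested erythroid and megakaryocyte genes (sum over 7 genes 868.9 to 964.3 on fl 4-OHT arrays, against 852.0 to 960.2 on fl vehicle arrays) and 7 mast cell and basophil genes (1667 to 3642 on fl 4-OHT arrays, against 1378 to 3078 on fl vehicle arrays). The part of these cells in the member changes was not tested.

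Among 18 tested genes of other stem and progenitor surface proteins, 0 passed in any comparison by limma. In the fl lines 12 of the 18 had a positive change and the median was 0.15, against about 0 over all genes tested. The smallest p values belonged to Spn, the sialoglycoprotein CD43, with -0.35 (SE 0.09, adjusted p = 0.192), to the hyaluronan receptor gene Cd44 with 0.55 (SE 0.15, adjusted p = 0.199) and to Il1rap, an IL-1 receptor subunit, with 0.54 (SE 0.20, adjusted p = 0.33). Spn was lower in all 3 fl lines (-0.33, -0.33 and -0.39) and higher in both wt lines (0.02 and 0.18). Il1rap changed by 1.14 in line 10986, against 0.12 and 0.35 in the other fl lines, and Cd44 by 0.94, against 0.46 and 0.24. Kit changed by 0.20 in the fl lines (SE 0.12, adjusted p = 0.574) and by 0.15 in the wt lines (SE 0.14, adjusted p = 1).

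Of 19 tested binding partners and relatives, likewise 0 passed in any comparison, and the fl median was -0.01. The tetraspanin gene Cd53 (0.33, SE 0.13), the SLAM family gene Ly9 (0.37, SE 0.18) and the Ly6 family gene Ly6e (0.19, SE 0.11) had the smallest p values in the fl lines, with adjusted p of 0.376, 0.494 and 0.573. In line 10986 Cd53 changed by 0.65 and Ly9 by 0.94, against 0.14 and 0.0026 in line 10949 and 0.19 and 0.16 in line 10950. Ly6e changed most in line 10949 (0.39, against 0.11 and 0.08 in lines 10950 and 10986). Neither Sirpa nor Thbs1, the genes of CD47 partners, passed, and their changes were not compared by a test. Sirpa, the gene of the CD47 receptor on macrophages, changed by -0.05 in the fl lines (SE 0.12, adjusted p = 0.97). Thbs1, the gene of the secreted CD47 ligand thrombospondin, was at 7.57, 8.40 and 8.91 with 4-OHT in lines 10949, 10950 and 10986, against 9.46, 10.32 and 11.39 with vehicle. Thbs1 moved in opposite directions in the wt lines, by -4.07 in line 10977 and 3.68 in line 10980, and the fitted fl change was -2.10 (SE 1.23, adjusted p = 0.585). The CD48 partner genes Cd244a and Cd2 changed by 0.11 (SE 0.09) and -0.09 (SE 0.10) in the fl lines.

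Genes with the most similar profiles were sought for Cd34, Prom1 and Thy1, the members with the largest SD over the 10 arrays. Likeness was the root mean square difference of log2 levels over the 10 arrays after each gene was centred on its mean. Nearest to Prom1 (SD 0.94) were Pip5k1b at 0.24, Bace1 at 0.28 and 4930438A08Rik at 0.30. For Thy1 (SD 0.81) they were Rbp4 at 0.35, Catsperz at 0.39 and Gcnt4 at 0.39. For Cd34 (SD 1.32) they were Catsperz at 0.73, Papss2 at 0.82 and the mast cell protease gene Cpa3 at 0.82. The measure was not scaled by the SD of a gene, so its size cannot be compared between members. Catsperz, named for both Thy1 and Cd34, changed by 1.24 on average in the fl lines and by -0.19 in the wt lines. These profiles share arrays and lines and are given with no test.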

How the data were processed

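RNA of 5 mouse leukaemia lines, each with and without 4-OHT, was measured on 10 single-colour arrays, from 200 ng of RNA per array per the labels' protocols. The deposited table holds 1 linear intensity per probe set and array, made by the authors with RMA per the submitters' processing notes, with no version given, and log2 was taken here. Of 35556 probe sets, 21789 had a single gene symbol in the platform annotation, 1621 had several and 12146 were not listed. The brightest single-symbol probe set stood for a gene. Medians of the arrays were 144.7 to 158.2, arrays have no read depth, and their number limits precision.

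All tests were two-sided and ran on the 10 arrays together, in limma 3.58.1 under R 4.3.3. For changes with 4-OHT, each cell line had its own fixed intercept, since it was cultured both ways per the series design, and each genotype its own 4-OHT term (6.69 degrees of freedom with the prior). For genotype comparisons, 4 group means were fitted and the line entered as a random effect (statmod 1.5.0, consensus correlation 0.165, 8.78 degrees of freedom with the prior). The same correlation was used for every gene, while the genotypes hold only 3 and 2 lines. For genes that differ more between lines, such as Cd34, the genotype intervals can be too narrow. As a check of pairing, deviations from group means within a line correlated at 0.78 (line 10949), 0.22 (line 10950), -0.06 (line 10986) and 0.43 (both wt lines). The wt lines must give the same value, because each wt group holds 2 arrays. The fit was tested on simulated data with planted log2 changes of 2 and 3 in either direction, so the recovery of smaller changes was not tested. The members, gene lists and tests were chosen with earlier results of these data known. The naming rule was all 9 members on every array, the list genes that passed or else the 3 with the smallest p in the fl lines, Kit, Zfx and direct partners, and the 3 nearest profiles of the 3 most variable members. Genes of other cell types came from marker lists and were picked as examples after their values were seen. Alternatives changed the block, filter, probe set choice, scaling, prior and lines.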

Additional observations from a re-analysis of the deposited data

Results flagged for a closer look

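Cd9 moved up with 4-OHT in every fl line (0.23, 0.03 and 0.82) and down in both wt lines (-0.15 and -0.39), a difference of 0.63 between the mean changes of the genotypes on the log2 scale. The test of that difference by limma did not pass (adjusted p = 0.836), and 4.58% of all genes tested had the same pattern of sign. The groups of 3 and 2 arrays are too small for a test of single arrays that stand far from the rest of their group.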

How the results depend on the processing

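The arrays have no depth, and signals near the floor, such as those of Cd27, give no measure of change. Without the line as a replicate block, 0 members passed in any comparison, and Thy1 in the fl lines stood at 0.90 (adjusted p = 0.507). Members passed in 4 results under 3 alternatives: Thy1 without line 10986 in the fl lines (0.93) and between genotypes under 4-OHT (1.90), and Prom1 between genotypes under 4-OHT (-1.73) with the filter at the 50th percentile and without the vehicle array of line 10986. The number of members passing was then 1 in place of 0, so over the single lines left out it ran from 0 to 1 in the fl lines and under 4-OHT. Over all members, comparisons and alternatives, 501 values kept their sign and did not pass, 4 passed and 20 changed sign.

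The number of all genes passing in the fl lines was 24 (8 higher, 16 lower), and 83 with a random replicate block, 0 with the fl arrays alone, 8 with no level filter, 14 with the stricter filter, 0 with every probe set tested, 3 with arrays centred on their median, 61 (28 higher, 33 lower) after quantile normalization and 0 to 440 with single lines left out. For the difference between genotypes it was 0, and 1 without the block, with the random block, or without both the block and that line 10986 vehicle array, and 0 to 20 with lines left out. Between genotypes under 4-OHT it was 101 (29 higher, 72 lower), and 167 without the vehicle array of line 10986, 36 with every probe set tested, 66 (10 higher, 56 lower) with arrays centred and 0 to 52 with lines left out. Under vehicle it was 3, and 6 without that array, 0 with no filter, the stricter filter, every probe set or quantile normalization, and 0 to 15 with lines left out. The causes were not tested.

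Sign changes were in values that did not pass. With neither the block nor that array, the fl change was -0.056 for Cd48 and -0.14 for Cd93, and the genotype difference -0.17 for Cd93 and -0.0072 for Cd47. Quantile normalization gave a difference of -0.044 for Cd93. With single lines left out, the fl change ran from -0.090 to 0.55 for Cd48 (negative without line 10986) and from -0.058 to 0.26 for Cd93 (negative without line 10950 or 10986). The difference ran from -0.092 to 0.23 for Cd93 (negative without line 10950, 10986 or 10980), from -0.067 to 0.22 for Cd47 (negative without line 10986 or 10980) and from -0.25 to 0.00028 for Prom1 (positive without line 10949). The wt change, with 1 wt line left, ran from -0.50 to 0.58 for Cd34, -0.084 to 0.15 for Cd93, -0.079 to 0.21 for Cd47 and -0.14 to 0.18 for Thy1. The vehicle difference ran from -0.29 to 2.25 for Cd34 (negative without line 10977) and from -0.17 to 0.80 for Cd48 (negative without line 10980).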
